A study of Homo sapiens with 4 samples.

Results

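The genes described here encode the DNA repair and checkpoint machinery, measured here in the human gastric cancer cell lines AGS and MKN1. They were chosen by name as 50 genes of homologous recombination, the Fanconi anaemia pathway, end joining, single-strand break repair, mismatch repair and the damage checkpoint, and each of the 50 has its own row among the 57815 rows of the deposited expression table. Cells of each line were transfected with Lipofectamine 2000 and received a small interfering RNA (siRNA) either against the homeobox transcription factor HOXB9 (siHOXB9) or of scrambled sequence (siScramble). The groups were thus AGS siHOXB9, AGS siScramble, MKN1 siHOXB9 and MKN1 siScramble, with 1 RNA-seq library of polyadenylated RNA each, and the series set out to find genes that depend on HOXB9. Each siRNA group is 1 transfected culture of 1 line, so within a line no value has a replicate error, and the other line is the only repeat of the knockdown.

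Breaks in both DNA strands are repaired either by rejoining the ends, which the Ku proteins and DNA ligase IV carry out, or by homologous recombination, in which the ends are trimmed and the broken DNA is copied from the sister chromatid. BRCA1, BRCA2, PALB2 and a family of paralogs that includes RAD51C and XRCC3 carry the recombination forward, and the Fanconi anaemia proteins bring the same machinery to crosslinks and stalled forks. The kinases ATM and ATR, with CHEK2 and CHEK1 downstream of them, hold the cell cycle while repair proceeds. Many of the recombination and Fanconi genes are transcribed mainly in S and G2 phase, whereas the end-joining genes are used through the whole cycle.

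HOXB9 itself was at 4.44 FPKM (fragments per kilobase of transcript scaled to sequencing depth, computed by the authors) in AGS siHOXB9 against 16.4 in AGS siScramble, and at 0.218 in MKN1 siHOXB9 against 1.14 in MKN1 siScramble. Library depth, read from the steps of low FPKM values, was about 12480000 and 12980000 fragments in AGS siHOXB9 and siScramble and about 10620000 and 11490000 in MKN1 siHOXB9 and siScramble. The FPKM of all rows summed to 777152 and 831098 in AGS siHOXB9 and siScramble and to 826111 and 784213 in MKN1 siHOXB9 and siScramble. Summed levels of gene groups given below are not corrected for these totals. The keratin genes KRT8 and KRT18 were high in all 4 libraries (KRT8 at 1077 to 1880 FPKM). However, EPCAM and a further keratin gene, KRT19, lay at 2.02 to 2.70 FPKM in MKN1. CDH1, E-cadherin, stayed between 0.0752 and 3.28 FPKM in all 4 libraries. Of 6 leukocyte markers, 2 reached 1 FPKM in each line, CD68 and the lysozyme gene LYZ, which gastric cells also express, while PTPRC and CD3E were at 0 to 0.0183 FPKM. Of 3 endothelial markers CDH5 alone reached 1 FPKM, in MKN1, and KDR was at 0. Of 6 fibroblast markers, 2 were measured in AGS and 5 in MKN1, with a summed level of 30.9 FPKM in AGS siHOXB9, 16.2 in AGS siScramble, 71.9 in MKN1 siHOXB9 and 59.4 in MKN1 siScramble, and COL1A2 was at 0. The part of these markers in the results was not tested.

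The 50 genes covered a wide span of levels, from BRCA2 at 0.418 FPKM in MKN1 siScramble to XRCC6 at 220 FPKM in MKN1 siScramble. All 50 reached 1 FPKM in AGS siScramble, 48 did in AGS siHOXB9 and 49 did in each MKN1 library. Changes within a line are given as log2 of the ratio of siHOXB9 to siScramble after adding 1 FPKM to each, which understates the change of low genes. A gene counts as measured in a line where one of the line's libraries reaches 1 FPKM. By that rule all 50 were measured in AGS and 49 in MKN1, where BRCA2 stayed at 0.736 FPKM with siHOXB9 and 0.418 with siScramble.

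In AGS, 41 of the 50 genes were lower with siHOXB9 than with siScramble, while 57% of all 13252 measured rows were lower. The median change of the 50 was -0.29 on the log2 scale, against -0.06 for all rows. By a size rule of 1.5-fold, 12 were lower and 1 was higher, where 8.37% of all rows were lower and 5.64% higher by that much. By a size rule of 2-fold, which like all size rules here is applied to FPKM + 1, RAD51C, FANCD2 and XRCC3 were lower and none was higher, where 2.21% of all rows were lower and 1.68% higher. In FPKM itself BLM (43.6% of siScramble), FANCB (44.7%), LIG3 (49.9%) and BARD1 (49.96%) were lower by 2-fold as well. The share of all rows past 2-fold in FPKM itself was not counted. With a pseudocount of 0.1 FPKM, 5 of the 50 passed 2-fold in AGS, against 7.83% of all rows in either direction. The libraries are of whole cultures, so fewer cells that express a gene and less of its RNA per cell cannot be told apart. Genes of proliferating cells were lower beside them in AGS. All 29 genes of a proliferation list, which holds MKI67, PCNA, the MCM helicase and mitotic kinases, were lower with siHOXB9, with a median of -0.82, and their summed level was 51.9% of siScramble, against 78.6% for the 50 repair and checkpoint genes. The part of the proliferation genes in the change of the repair genes was not tested.

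In MKN1, of the 49 genes measured, 22 were lower and 27 higher with siHOXB9, where 36.9% of all 13122 rows were lower, and the median was 0.059 against 0.09 for all rows. On the FPKM + 1 scale none of the 49 reached a 2-fold difference, where 1.94% of all rows were lower and 2.1% higher by that much. In FPKM itself BARD1, at 49.99% of siScramble, and FANCC, at 204%, were just past it, a scale on which all rows were not counted. With a pseudocount of 0.1 FPKM, 1 of the 49 passed 2-fold in MKN1, against 7.81% of all rows in either direction. By 1.5-fold, BARD1 was lower and FANCC and FANCA were higher, where 5.39% of all rows were lower and 7.96% higher. The sign of this median depends on the scaling, since it turns to -0.036 once the changes are centred on the median row. Of the 29 proliferation genes 16 were lower in MKN1, with a median of -0.10, and their summed level was 99.1% of siScramble.

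**Figure D1:**
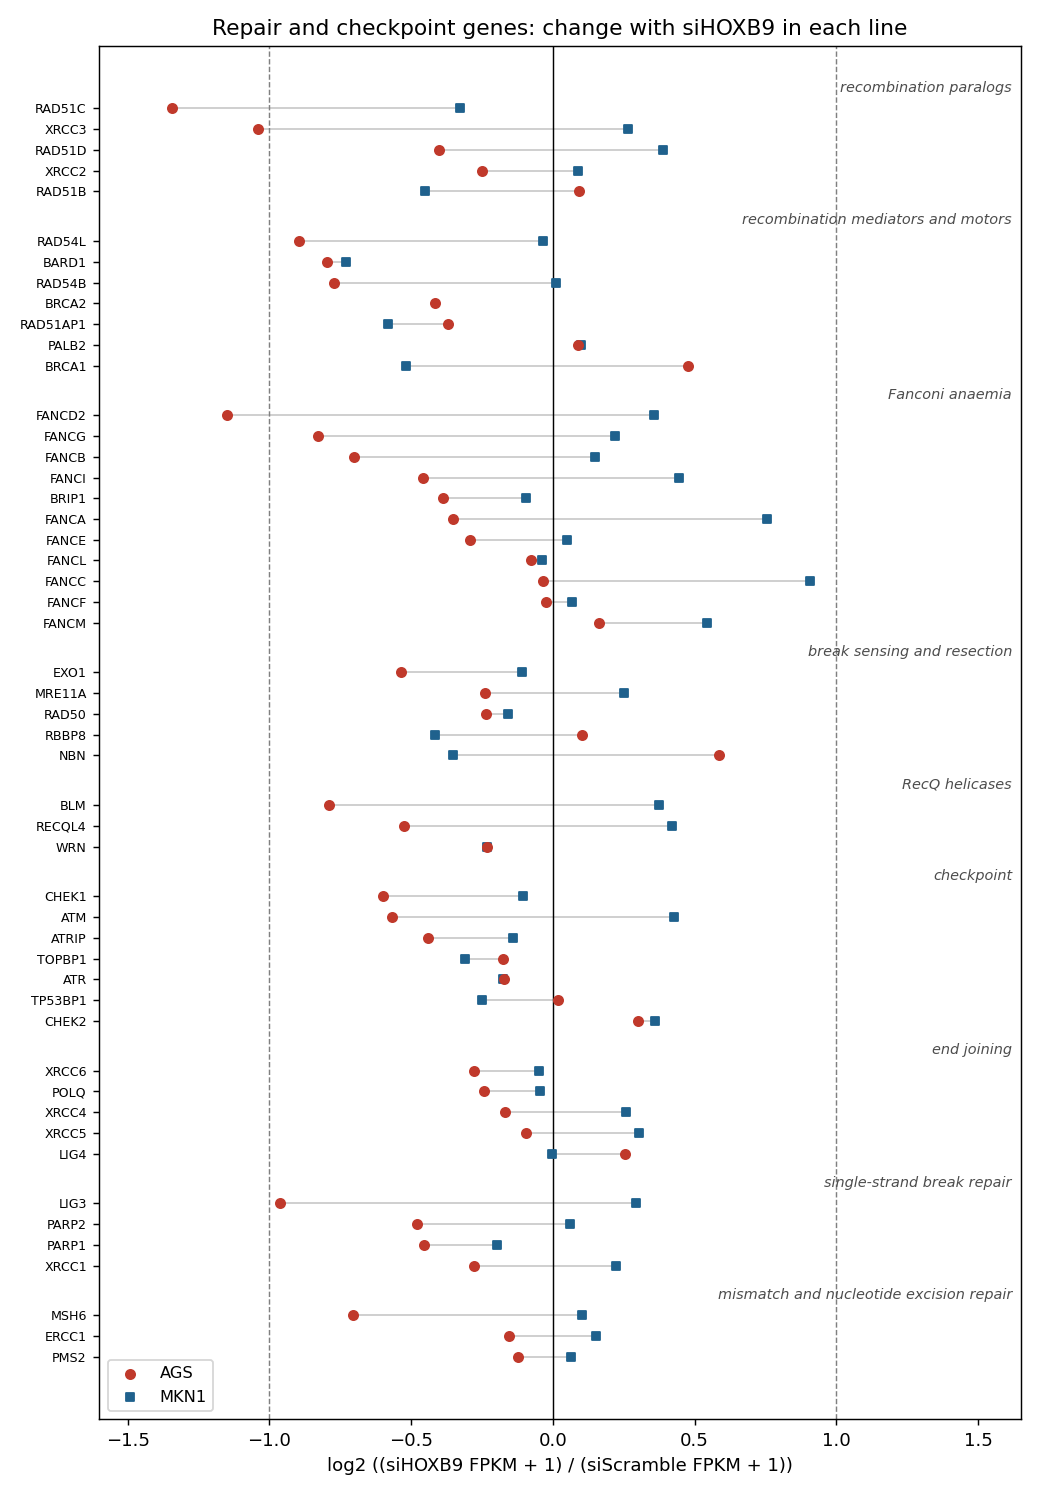
Change of each repair and checkpoint gene with siHOXB9, as log2((siHOXB9 FPKM + 1)/(siScramble FPKM + 1)) on the horizontal axis, in AGS (red circles) and MKN1 (blue squares), grouped by role, with 1 library per siRNA and line. Dashed lines mark a 2-fold difference, which RAD51C (-1.34), FANCD2 (-1.15) and XRCC3 (-1.04) passed in AGS and no gene passed in MKN1.

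The recombination paralogs RAD51B, RAD51C, RAD51D, XRCC2 and XRCC3 form small complexes that aid homologous recombination. In AGS they held 2 of the 3 differences past 2-fold on the FPKM + 1 scale. RAD51C, a subunit of both paralog complexes, was at 5.33 FPKM in AGS siHOXB9 and 15.1 in AGS siScramble, and at 21.8 in MKN1 siHOXB9 and 27.6 in MKN1 siScramble. It was lower with siHOXB9 in both lines, by -1.34 in AGS, where only 0.762% of all rows were as low, and by -0.33 in MKN1. The AGS level was 35.4% of siScramble, with a 95% exact binomial (Clopper-Pearson) interval of 29.3% to 42.5% from about 155 and 456 estimated fragments, which covers counting error only. RAD51C (ENSG00000108384.14) (GRCh38, chromosome 17, forward strand, 58692573 to 58735611) shares no exon with another annotated gene.

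XRCC3, the partner of RAD51C in the smaller complex, was at 10.4 FPKM in AGS siHOXB9 and 22.4 in AGS siScramble, and at 26.6 in MKN1 siHOXB9 and 22 in MKN1 siScramble. It was lower in AGS (log2 -1.04, 46.3% of siScramble) and slightly higher in MKN1 (0.26). Its AGS value was -0.95 with libraries scaled to a common total and -0.98 with median centring, just short of 2-fold. XRCC3 (ENSG00000126215.13, chromosome 14, reverse strand, 103697609 to 103715504) overlaps an exon of KLC1 on the other strand, and the sources used here do not say whether strand was kept in counting. RAD51D, of the larger complex, was at 6.76 FPKM in AGS siHOXB9 and 9.24 in AGS siScramble, and at 11.1 in MKN1 siHOXB9 and 8.27 in MKN1 siScramble. Its changes were of like size and opposite sign (-0.40 in AGS and 0.39 in MKN1), and it shares exons with the readthrough gene RAD51L3-RFFL.

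XRCC2, the lowest of the paralogs in AGS, was at 1.02 FPKM in AGS siHOXB9 and 1.41 in AGS siScramble, and at 3.54 in MKN1 siHOXB9 and 3.27 in MKN1 siScramble. At about 36 and 51 estimated fragments in AGS, its interval of 46.5% to 115% of siScramble includes no difference. RAD51B was at 5.22 FPKM in AGS siHOXB9 and 4.83 in AGS siScramble, and at 1.51 in MKN1 siHOXB9 and 2.43 in MKN1 siScramble. It was the one paralog that was not lower in AGS (0.09), and it stood at -0.45 in MKN1. The summed level of the 5 paralogs was 54.2% of siScramble in AGS and 102% in MKN1.

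The RefSeq promoter windows (GRCh38.p14, 250 bases before to 50 after the start of transcription) of the 3 genes past the 2-fold rule in AGS and of BARD1, which was lower by 1.5-fold in both lines, are shown because these genes carry the differences described. Capitals mark GCGGGAA, a word of E2F sites, and CCAAT, the word bound by NF-Y, on either strand. TTTGAA, a word of the cell cycle element CHR, was searched as well and was not found in these 4 windows. The windows are chr17:58692323-58692622 (forward strand) for RAD51C, chr14:103715402-103715701 (reverse) for XRCC3, chr3:10026187-10026486 (forward) for FANCD2 and chr2:214809634-214809933 (reverse) for BARD1.
RAD51C: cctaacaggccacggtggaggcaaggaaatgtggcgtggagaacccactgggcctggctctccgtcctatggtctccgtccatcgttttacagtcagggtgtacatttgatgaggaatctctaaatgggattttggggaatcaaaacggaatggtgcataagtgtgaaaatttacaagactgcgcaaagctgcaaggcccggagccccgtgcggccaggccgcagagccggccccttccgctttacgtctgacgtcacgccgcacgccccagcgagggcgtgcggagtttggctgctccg
XRCC3: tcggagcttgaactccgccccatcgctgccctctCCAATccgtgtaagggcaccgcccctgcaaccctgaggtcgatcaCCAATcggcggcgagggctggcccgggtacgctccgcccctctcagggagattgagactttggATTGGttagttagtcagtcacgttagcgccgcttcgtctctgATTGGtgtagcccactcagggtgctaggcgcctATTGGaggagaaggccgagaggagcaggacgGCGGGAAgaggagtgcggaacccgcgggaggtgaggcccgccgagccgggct
FANCD2: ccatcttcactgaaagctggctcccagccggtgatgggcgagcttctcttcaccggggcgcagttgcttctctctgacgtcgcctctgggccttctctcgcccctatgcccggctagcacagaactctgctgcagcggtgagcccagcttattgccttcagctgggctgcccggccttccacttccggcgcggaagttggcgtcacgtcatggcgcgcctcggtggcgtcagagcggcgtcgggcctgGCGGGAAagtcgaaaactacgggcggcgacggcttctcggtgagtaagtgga
BARD1: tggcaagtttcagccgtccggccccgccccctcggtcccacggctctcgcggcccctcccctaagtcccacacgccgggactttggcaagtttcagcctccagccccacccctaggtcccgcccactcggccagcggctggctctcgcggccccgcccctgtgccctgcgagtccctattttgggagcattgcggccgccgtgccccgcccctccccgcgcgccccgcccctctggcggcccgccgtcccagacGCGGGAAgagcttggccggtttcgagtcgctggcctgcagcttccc
The E2F word begins at base -2 in XRCC3 and FANCD2 and at base 5 in BARD1, counted from the start of transcription, and XRCC3 has 5 copies of CCAAT upstream. The RAD51C window holds none of the 3 words.

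Promoters were at hand for 44 of the 50 genes. The E2F word was in 19 of them (43.2%), against 13.0% of 8747 measured AGS rows with a promoter and 7.82% of all 27305 genes in the promoter table. CCAAT was in 23 (52.3%), against 43.3% of the measured rows, and TTTGAA in 6 (13.6%), against 13.5%. In AGS, 18 of the 19 genes with the E2F word were lower with siHOXB9, with a median of -0.40, and 18 of the 25 without it were lower, with a median of -0.18. Over all measured AGS rows the medians were -0.11 with the word and -0.05 without it, and 64.9% of rows with the word and 57.0% of those without it were lower. In MKN1 the medians were 0.06 for 19 genes with the E2F word and 0.03 for 24 without it. For CCAAT and TTTGAA the AGS medians lay the other way. The median was -0.28 for 23 genes with CCAAT (17 lower) and -0.40 for 21 without it (19 lower). It was -0.26 for 6 genes with TTTGAA (6 lower) and -0.32 for 38 without it (30 lower). A match of letters is a description and does not show that a factor was bound.

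**Figure D2:**
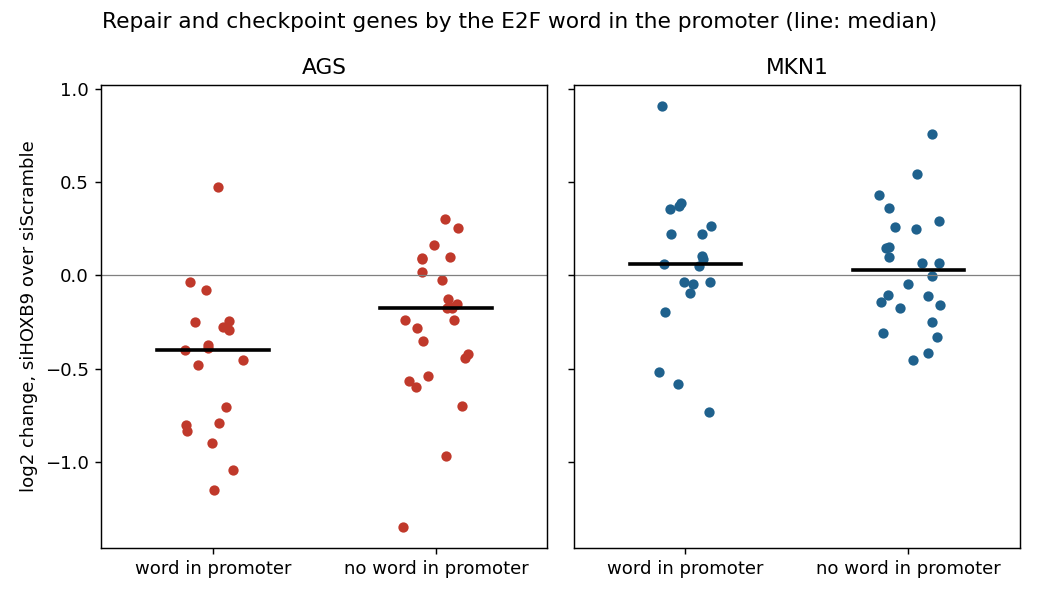
Change with siHOXB9 (vertical axis, log2) of the repair and checkpoint genes with the word GCGGGAA in the promoter window and of those without it, in AGS (left) and MKN1 (right). Points are genes with 1 library per siRNA and bars are medians, which were -0.40 and -0.18 in AGS and 0.06 and 0.03 in MKN1.

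Among the mediators and motors of recombination, BARD1 was the gene lower in both lines by the widest margin. BARD1, the obligate partner of BRCA1 in a ubiquitin ligase, was at 2.80 FPKM in AGS siHOXB9 and 5.60 in AGS siScramble, and at 1.92 in MKN1 siHOXB9 and 3.85 in MKN1 siScramble. The siHOXB9 level was 49.96% of siScramble in AGS and 49.99% in MKN1 (counting intervals 41.7% to 59.7% in AGS and 39.3% to 63.0% in MKN1), and the log2 changes were -0.80 and -0.73. Fitted across AGS and MKN1 together, limma estimated -0.76 (SE 0.214). The p was 0.00870 before adjustment and 0.547 after limma's adjustment for all rows. BARD1 (ENSG00000138376.10, chromosome 2, reverse strand, 214725646 to 214809711) shares no exon with another gene.

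BRCA1, singled out after its values were seen, went the other way in AGS and along with BARD1 in MKN1. It was at 8.15 FPKM in AGS siHOXB9 and 5.58 in AGS siScramble, and at 5.00 in MKN1 siHOXB9 and 7.58 in MKN1 siScramble, with changes of 0.48 and -0.52. The ratio of BARD1 to BRCA1 was 0.343 in AGS siHOXB9 and 1.00 in AGS siScramble, and 0.385 in MKN1 siHOXB9 and 0.508 in MKN1 siScramble, so it was lower with siHOXB9 in both lines. PALB2, which bridges BRCA1 to BRCA2, was nearly level (0.09 in AGS and 0.10 in MKN1). BRCA2, a mediator of recombination, was at 0.559 FPKM in AGS siHOXB9 and 1.08 in AGS siScramble, the lowest level of its group.

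RAD51AP1, a cofactor that stimulates strand pairing, was at 12.0 FPKM in AGS siHOXB9 and 15.8 in AGS siScramble, and at 17.6 in MKN1 siHOXB9 and 26.9 in MKN1 siScramble. It was lower in both lines (-0.37 and -0.58), with a limma estimate of -0.48 (SE 0.191), a p of 0.0409 before adjustment and 0.691 after it. The motor proteins RAD54L and RAD54B, which act along DNA during strand exchange, were lower in AGS and nearly level in MKN1. RAD54L was at 6.78 FPKM in AGS siHOXB9 and 13.5 in AGS siScramble (log2 -0.90), and at 16.2 in MKN1 siHOXB9 and 16.6 in MKN1 siScramble (-0.03). RAD54B followed with changes of -0.77 in AGS and 0.01 in MKN1.

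Of the 11 Fanconi anaemia genes, 10 were lower in AGS (median -0.35) and 9 were higher in MKN1 (median 0.22), and 8 were lower in AGS and higher in MKN1. Over all rows 57% were lower in AGS, 63.1% were higher in MKN1 and 34.9% were lower in AGS and higher in MKN1. Their summed level was 71.6% of siScramble in AGS and 135% in MKN1. FANCD2, which with FANCI forms the clamp that is ubiquitinated at crosslinks, was at 6.28 FPKM in AGS siHOXB9 and 15.2 in AGS siScramble, and at 26.2 in MKN1 siHOXB9 and 20.3 in MKN1 siScramble. It stood at 41.5% of siScramble in AGS (counting interval 36.8% to 46.7%, log2 -1.15) and at 129% in MKN1 (120% to 140%, log2 0.36). FANCD2 (ENSG00000144554.10, chromosome 3, forward strand, 10026414 to 10101930) overlaps an exon of FANCD2OS on the other strand.

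FANCI was at 30.3 FPKM in AGS siHOXB9 and 42.1 in AGS siScramble, and at 86.4 in MKN1 siHOXB9 and 63.2 in MKN1 siScramble, changes of -0.46 and 0.45. The FANCD2 to FANCI ratio was 0.207 in AGS siHOXB9 and 0.360 in AGS siScramble, while it was 0.304 in MKN1 siHOXB9 and 0.321 in MKN1 siScramble. In the core complex, the ligase that modifies this clamp, FANCG was at 9.81 FPKM in AGS siHOXB9 and 18.2 in AGS siScramble, and at 23.1 in MKN1 siHOXB9 and 19.7 in MKN1 siScramble. FANCG was thus lower in AGS (log2 -0.83) and slightly higher in MKN1 (0.22). FANCB, the lowest of the group in AGS siHOXB9 after BRIP1, was at 1.02 FPKM with siHOXB9 and 2.28 with siScramble in AGS, and at 2.84 and 2.46 in MKN1.

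FANCC and FANCA, also of the core complex, had the largest positive differences among the 50 genes in MKN1. FANCC was at 4.66 FPKM in AGS siHOXB9 and 4.81 in AGS siScramble, and at 10.7 in MKN1 siHOXB9 and 5.27 in MKN1 siScramble. It was level in AGS (-0.04) and higher in MKN1 (0.91), where 2.74% of all rows were as high. FANCA was at 20.1 FPKM in AGS siHOXB9 and 25.9 in AGS siScramble, and at 52.3 in MKN1 siHOXB9 and 30.6 in MKN1 siScramble (log2 -0.35 and 0.76). FANCA overlaps an exon of ZNF276 on the other strand, and FANCC overlaps exons of 2 unnamed transcripts there. FANCM, a translocase that recruits the core complex, was higher in both lines (0.16 and 0.54), while FANCL, the catalytic subunit, was within 0.08 of no change in both. BRIP1, a helicase bound to BRCA1, was at 0.815 FPKM in AGS siHOXB9 and 1.38 in AGS siScramble, and at 3.36 in MKN1 siHOXB9 and 3.65 in MKN1 siScramble. It was lower in both (-0.39 and -0.09), while FANCE stood at -0.29 in AGS and 0.05 in MKN1, and FANCF at -0.02 and 0.07.

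**Figure D3:**
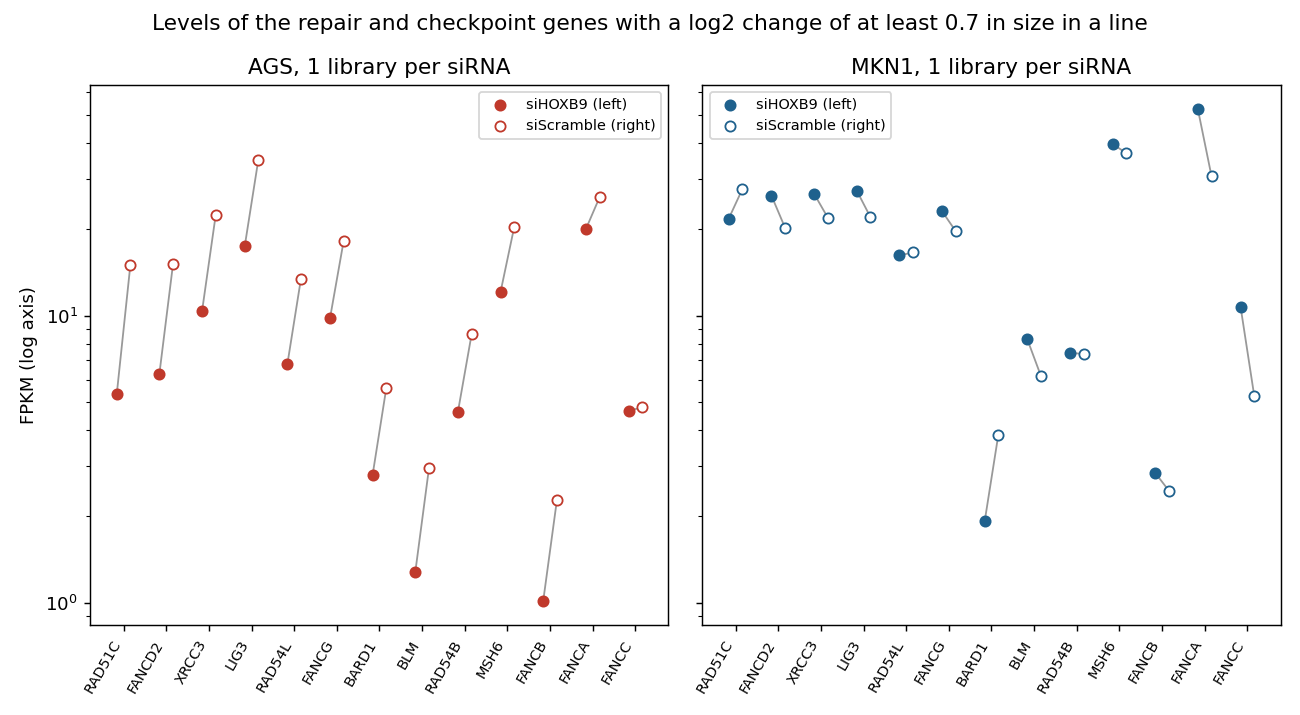
FPKM (vertical log axis) of the repair and checkpoint genes with a log2 change of at least 0.7 in size in a line, in AGS (left panel) and MKN1 (right panel), with siHOXB9 as filled and siScramble as open circles, 1 library each. RAD51C, FANCD2, XRCC3 and LIG3 were lower with siHOXB9 in AGS, BARD1 in both lines, and FANCC and FANCA were higher with siHOXB9 in MKN1.

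The genes that sense and trim broken ends had no common direction. MRE11A, the nuclease of the MRN complex, was at 10.4 FPKM in AGS siHOXB9 and 12.5 in AGS siScramble, and at 13.7 in MKN1 siHOXB9 and 11.4 in MKN1 siScramble. Its log2 values were small (-0.24 in AGS and 0.25 in MKN1), as were those of the tether RAD50 (-0.24 and -0.16). Their partner NBN, which links the complex to ATM, was at 11.1 FPKM in AGS siHOXB9 and 7.04 in AGS siScramble, and at 14.0 in MKN1 siHOXB9 and 18.2 in MKN1 siScramble. NBN was the one gene of the 50 higher by 1.5-fold in AGS (log2 0.59), and it was lower in MKN1 (-0.35). The NBN to MRE11A ratio was 1.06 in AGS siHOXB9 and 0.565 in AGS siScramble, and 1.02 in MKN1 siHOXB9 and 1.60 in MKN1 siScramble. RBBP8, which starts trimming, was at 17.6 FPKM in AGS siHOXB9 and 16.3 in AGS siScramble, and at 14.0 in MKN1 siHOXB9 and 19.0 in MKN1 siScramble. The long-range nuclease EXO1 was lower in AGS (-0.54) and nearly level in MKN1 (-0.11).

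Of the RecQ helicases, which unwind recombination intermediates, BLM was at 1.28 FPKM in AGS siHOXB9 and 2.94 in AGS siScramble, and at 8.28 in MKN1 siHOXB9 and 6.17 in MKN1 siScramble. The AGS level was 43.6% of siScramble, with a counting interval of 33.1% to 56.8% from about 80 and 191 estimated fragments. RECQL4 was at 25.1 FPKM in AGS siHOXB9 and 36.5 in AGS siScramble, and at 66.1 in MKN1 siHOXB9 and 49.2 in MKN1 siScramble. Both were lower in AGS (-0.79 and -0.53) and higher in MKN1 (0.37 and 0.42), whereas WRN stood at -0.23 in each line, with 3.38 FPKM in AGS siHOXB9, 4.15 in AGS siScramble, 3.29 in MKN1 siHOXB9 and 4.03 in MKN1 siScramble.

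Of the 7 checkpoint genes 5 were lower with siHOXB9 in AGS and 5 in MKN1, against the 57% and 36.9% of all rows given above. CHEK1, the effector kinase of ATR, was at 20.1 FPKM in AGS siHOXB9 and 30.9 in AGS siScramble, and at 38.1 in MKN1 siHOXB9 and 41.1 in MKN1 siScramble (log2 -0.60 and -0.11). ATR was at 3.32 FPKM in AGS siHOXB9 and 3.87 in AGS siScramble, and at 4.44 in MKN1 siHOXB9 and 5.15 in MKN1 siScramble. Its partner ATRIP was at 2.62 FPKM in AGS siHOXB9 and 3.90 in AGS siScramble, and at 9.53 in MKN1 siHOXB9 and 10.6 in MKN1 siScramble. The log2 values were -0.17 in AGS and -0.18 in MKN1 for ATR, -0.44 and -0.14 for ATRIP, and -0.18 and -0.31 for TOPBP1, the activator of ATR. CHEK2, the effector kinase of ATM, was at 21.2 FPKM in AGS siHOXB9 and 17.0 in AGS siScramble, and at 11.7 in MKN1 siHOXB9 and 8.87 in MKN1 siScramble. It was higher in both lines (0.30 and 0.36), as were FANCM and PALB2 and no others of the 49 genes measured in both. ATM was at 3.69 FPKM in AGS siHOXB9 and 5.94 in AGS siScramble, and at 5.21 in MKN1 siHOXB9 and 3.62 in MKN1 siScramble, so its changes were opposite (-0.57 and 0.43). TP53BP1, which shields ends from trimming, was level in AGS (0.02) and stood at -0.25 in MKN1.

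The end-joining group held the most abundant gene of the set. XRCC6, the Ku70 subunit that caps broken ends, was at 145 FPKM in AGS siHOXB9 and 176 in AGS siScramble, and at 212 in MKN1 siHOXB9 and 220 in MKN1 siScramble. XRCC5, the Ku80 subunit, was at 85.1 FPKM in AGS siHOXB9 and 90.8 in AGS siScramble, and at 160 in MKN1 siHOXB9 and 129 in MKN1 siScramble. The 5 genes of the group stayed between -0.28 and 0.26 in AGS and between -0.05 and 0.31 in MKN1. XRCC4 was at 20.3 FPKM in AGS siHOXB9 and 23.0 in AGS siScramble, and at 12.2 in MKN1 siHOXB9 and 10.1 in MKN1 siScramble. LIG4, the ligase that XRCC4 holds, was far below it, with 2.21 FPKM in AGS siHOXB9, 1.69 in AGS siScramble, and 2.01 in each MKN1 library. POLQ, the polymerase of microhomology-mediated joining, was at 1.81 FPKM in AGS siHOXB9 and 2.33 in AGS siScramble, and at 1.95 in MKN1 siHOXB9 and 2.05 in MKN1 siScramble.

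All 4 genes of single-strand break repair were lower in AGS, as were 57% of all rows. LIG3, the ligase that seals these nicks in nucleus and mitochondria, was at 17.4 FPKM in AGS siHOXB9 and 35.0 in AGS siScramble, and at 27.3 in MKN1 siHOXB9 and 22.1 in MKN1 siScramble. It was at 49.9% of siScramble in AGS (log2 -0.96), where 2.47% of all rows were as low, and higher in MKN1 (0.29). LIG3 (ENSG00000005156.11, chromosome 17, forward strand, 34980494 to 35009743) overlaps exons of CCT6B and RFFL on the other strand. XRCC1, the scaffold that binds LIG3, was at 70.2 FPKM in AGS siHOXB9 and 85.4 in AGS siScramble, and at 43.5 in MKN1 siHOXB9 and 37.1 in MKN1 siScramble. The LIG3 to XRCC1 ratio was 0.248 in AGS siHOXB9 and 0.410 in AGS siScramble, and 0.628 in MKN1 siHOXB9 and 0.596 in MKN1 siScramble.

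Of the sensors of nicks, PARP1 was at 70.3 FPKM in AGS siHOXB9 and 96.7 in AGS siScramble, and at 137 in MKN1 siHOXB9 and 157 in MKN1 siScramble. PARP2 was at 29.2 FPKM in AGS siHOXB9 and 41.1 in AGS siScramble, and at 24.7 in MKN1 siHOXB9 and 23.7 in MKN1 siScramble. Both were lower in AGS (-0.45 and -0.48), and in MKN1 PARP1 stood at -0.20 and PARP2 at 0.06. MSH6, which recognises mismatches, was at 12.1 FPKM in AGS siHOXB9 and 20.4 in AGS siScramble, and at 39.7 in MKN1 siHOXB9 and 36.9 in MKN1 siScramble (log2 -0.71 and 0.10). PMS2, the nuclease of mismatch repair, was near level in both lines (-0.12 and 0.06), with 3.90 FPKM in AGS siHOXB9, 4.33 in AGS siScramble, 5.94 in MKN1 siHOXB9 and 5.64 in MKN1 siScramble. ERCC1, part of a nuclease for bulky lesions and crosslinks, was at 73.3 FPKM in AGS siHOXB9 and 81.6 in AGS siScramble, and at 37.8 in MKN1 siHOXB9 and 33.9 in MKN1 siScramble.

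Set side by side, 16 of the 49 genes measured in both lines were lower in both and 24 were lower in AGS and higher in MKN1. Over 11547 rows these shares were 23.9% and 34.9%. A further 3 were higher in both and 6 were higher in AGS and lower in MKN1. Opposite changes of at least 1.25-fold in each line were found for 9 of the 49 (18.4%), against 4.56% of the rows. Of these 9, 7 were lower in AGS. At 1.5-fold in each line there were 0 of the 49, against 103 of the 11547 rows. Across the 49 genes Pearson's r between the lines was -0.12 and Spearman's rho -0.16, against 0.13 and 0.20 across all rows. These correlations are over genes of 1 library per siRNA and line, which are not independent replicates.

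**Figure D4:**
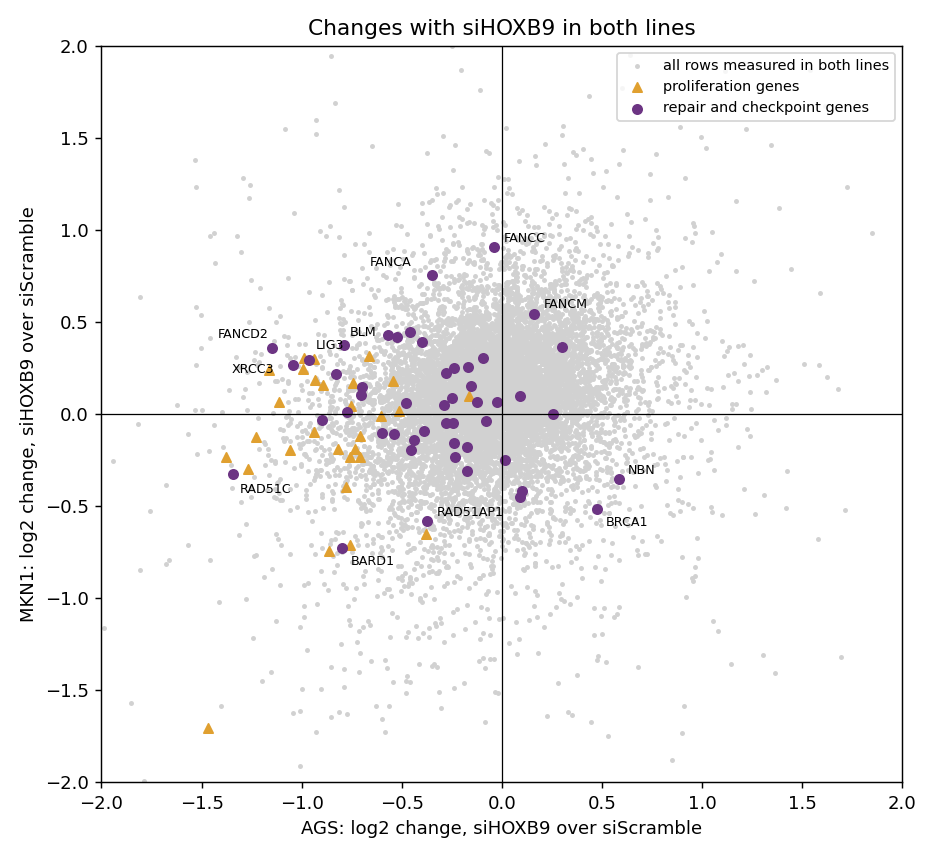
Change with siHOXB9 in AGS (horizontal axis, log2) and MKN1 (vertical axis, log2) for the repair and checkpoint genes (purple), 29 proliferation genes (orange triangles) and all rows measured in both lines (grey, 72 rows beyond 2 in size in either line are not drawn). Of the 49 purple points 24 lie in the upper left quadrant, lower in AGS and higher in MKN1, and 16 in the lower left one.

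A limma fit over the 4 libraries, with cell line as a block and siHOXB9 minus siScramble as the contrast, tested 49 of the genes together with all other rows at 1 FPKM or more in at least 2 libraries. BRCA2 did not reach that level. At an adjusted p under 0.05, 0 of the 49 passed, where 0.00727% of the 13758 rows did, and the fit has 1 residual degree of freedom. HOXB9, the target of the siRNA, did not pass either (limma adjusted p = 0.355). The count of 0 thus does not show that the 49 genes were unchanged. At an unadjusted p under 0.05 there were 3, BARD1, RAD51C and RAD51AP1, all lower, against 7.12% of all rows. For RAD51C the limma estimate was -0.84 (SE 0.269, adjusted p = 0.616). The median estimate of the 49 was -0.16, against 0.02 for all rows, and 38 of the 49 were below 0, against 47.0% of the rows.

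The same fit compared the levels of the lines, with 2 libraries each, 1 siHOXB9 and 1 siScramble, so each estimate averages over the siRNAs. The 2 libraries of a line are not replicate cultures. The SE and p rest on how the gaps of the rows differ between the siRNAs, not on spread between cultures of a line. With an adjusted p under 0.05 and at least a 2-fold difference, 8 genes were higher and 3 lower in MKN1 than in AGS, where 16.2% of all rows were higher and 20.9% lower. EXO1 differed most, with 19.4 and 21.0 FPKM in MKN1 siHOXB9 and siScramble against 5.22 and 8.03 in AGS siHOXB9 and siScramble (log2 difference 1.5, SE 0.212, limma adjusted p = 0.000810). BLM (1.44), ATRIP (1.39), RAD51C (1.34), MSH6 (1.23), FANCD2 (1.15), BRIP1 (1.12) and FANCI (1.03) were also higher in MKN1. Their adjusted p in limma were 0.00128 to 0.0221. Neighbours in this order differed by less than their SE, which were 0.212 to 0.340. In siScramble, MKN1 and AGS differed by less than 2-fold for FANCD2 (20.3 and 15.2 FPKM), FANCI (63.2 and 42.1), RAD51C (27.6 and 15.1) and MSH6 (36.9 and 20.4). EXO1 (21.0 and 8.03) and ATRIP (10.6 and 3.90) were past 2-fold. BLM (6.17 and 2.94) and BRIP1 (3.65 and 1.38) were so only without the added 1 FPKM. ATRIP shares exon sequence with TREX1 on the same strand, and MSH6 and FANCI overlap exons of FBXO11 and POLG on the other.

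FANCF, an adaptor of the Fanconi core complex, was lower in MKN1, with 2.40 and 2.25 FPKM in MKN1 siHOXB9 and siScramble against 6.13 and 6.25 in AGS siHOXB9 and siScramble (log2 difference -1.11, SE 0.214, limma adjusted p = 0.00341). ERCC1 (-1.09) and RAD51B (-1.04) were lower as well. In siScramble RAD51B was at 2.43 FPKM in MKN1 and 4.83 in AGS, a difference of less than 2-fold. With each library centred on its median row the same count was 11 higher and 0 lower in MKN1, so the side of these 3 genes at the 2-fold limit depends on the scaling. For each of the 8 genes called higher in MKN1, the gap between lines was wider with siHOXB9 than with siScramble. The call averages both gaps, so a wide gap with siHOXB9 helps a gene to be among the 8. Their count is therefore not read as a result. Among these 8, the log2 change in MKN1 exceeded that in AGS most for FANCD2 (1.51), BLM (1.16) and RAD51C (1.02) and least for BRIP1 (0.29). Over all rows the median of this difference was 0.17. FANCD2 was at 26.2 FPKM in MKN1 siHOXB9 and 6.28 in AGS siHOXB9, and at 20.3 in MKN1 siScramble and 15.2 in AGS siScramble.

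**Figure D5:**
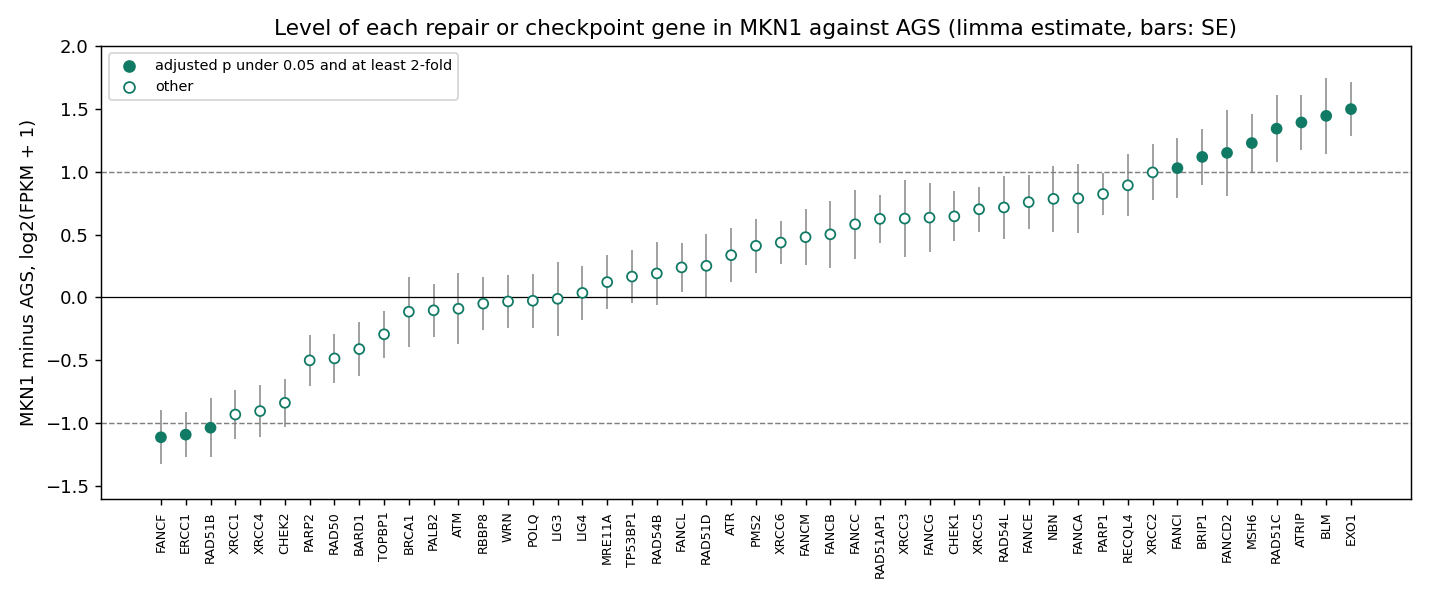
Difference in level between MKN1 and AGS (vertical axis, limma estimate on log2(FPKM + 1), bars are SE, 2 libraries per line, 1 per siRNA) for 49 repair and checkpoint genes in rising order. Filled points have an adjusted p under 0.05 and at least a 2-fold difference, 8 of them above 0 (EXO1 highest, 1.5) and 3 below 0 (FANCF lowest, -1.11).

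A further list of 76 repair genes, outside the 50, had 73 rows and 72 measured members. In AGS 51 were lower and 21 higher (median -0.21), with 12 lower and 2 higher by 1.5-fold, and in MKN1 33 were lower and 39 higher (median 0.07). Over all rows 57% were lower in AGS, 8.37% lower and 5.64% higher by 1.5-fold, and 36.9% were lower in MKN1. In AGS, RAD18, a ubiquitin ligase for damage tolerance, was at 2.08 FPKM with siHOXB9 and 6.73 with siScramble (log2 -1.33). It was higher with siHOXB9 in MKN1, with 32.7 FPKM against 26.2 in siScramble. HELQ, a helicase of crosslink repair, was at 3.54 FPKM in MKN1 siHOXB9 and 1.01 in MKN1 siScramble (log2 1.18), and at 4.43 in AGS siHOXB9 and 2.64 in AGS siScramble. At an adjusted p under 0.05 in limma, 0 of the 72 passed over both lines.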

How the data were processed

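Each of the 4 libraries is 1 culture of a line with 1 siRNA. Poly-T beads selected the RNA, random primers started the cDNA, and no step that keeps the strand is described, per the labels' protocols. The authors deposited 1 table of FPKM values by gene symbol. Builds GRCh38 and hg38 are named, per the submitters' processing notes, and for the aligner and counter these sources give no name. The title of 1 MKN1 library spells the line MNK1, and its other labels give MKN1.

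Depth was estimated from FPKM steps of genes with 1 transcript, using lengths shortened by 260 bases. Of these values 62.9% to 65.1% lay within 0.05 of a whole fragment. Fragment numbers and Clopper-Pearson intervals rest on that depth and the principal transcript of GENCODE 29, so they are estimates that cover counting error only.

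Changes used a pseudocount of 1 FPKM and rows of at least 1 FPKM in either library of a line, with no test within a line. limma 3.58.1 (R 4.3.3) was fitted to log2(FPKM + 1) with line as a block, a variance trend and Benjamini-Hochberg adjustment over all rows, two-sided, and was checked on simulated data. Positions and exon overlaps came from GENCODE 29, with 49 genes matched by symbol and MRE11A by its synonym MRE11. Of the 50 genes, 29 share exon sequence with another gene, 8 on the same strand. Promoters came from RefSeq (GRCh38.p14).

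The genes, lists, rules and alternatives were chosen with earlier results of these data known. Values of every library were given for HOXB9 and, by rule, for genes past 2-fold, called by limma, among the 2 largest changes of their role group in a line, or highest or lowest of it. The values of 1 gene of the further repair list are not reported here.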

Additional observations from a re-analysis of the deposited data

Results flagged for a closer look

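The median change of the 50 genes had opposite signs in the lines, -0.29 in AGS and 0.059 in MKN1, as did the median of all rows, -0.06 in AGS and 0.09 in MKN1. The sign in MKN1 turned under 4 of 7 alternatives. Changes of at least 1.25-fold in opposite directions were found for 9 genes, and at 1.5-fold in each line for 0. Each gene has 1 library per siRNA and line, so none of these differences was tested. In 7 of the 9 siHOXB9 was lower in AGS and higher in MKN1. These were FANCD2 (-1.15 in AGS and 0.36 in MKN1), BLM (-0.79 and 0.37), ATM (-0.57 and 0.43), RECQL4 (-0.53 and 0.42), FANCI (-0.46 and 0.45), RAD51D (-0.40 and 0.39) and FANCA (-0.35 and 0.76). The other 2 were higher in AGS and lower in MKN1, NBN (0.59 and -0.35) and BRCA1 (0.48 and -0.52).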

How the results depend on the processing

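The AGS median stayed below 0 under all 7 alternatives run for it (-0.36 to -0.20). The MKN1 median (0.059) turned to -0.013 with a common total, -0.036 with centring, -0.038 with quantile normalization and -0.024 among genes that share no exon. With a common total the median of all rows was 0.03 in AGS and 0.03 in MKN1, against -0.06 and 0.09 as deposited. Of the 50 genes, 3 passed 2-fold in AGS, against 3.89% of all rows. The count was 13 at 1.5-fold, against 14.0% of rows. It was 5 with a pseudocount of 0.1 FPKM, where BLM (-1.14) and FANCB (-1.09) passed, against 7.83%. It was 2 with a common total or centring, where XRCC3 (-0.95 and -0.98) did not pass, against 3.87% and 3.89%. Of 21 genes that share no exon 1 passed, against 2.49% of such rows. In MKN1 the count was 0, against 4.05% of all rows. There it was 3 at 1.5-fold (13.4% of rows) and 1, FANCC (1.02), with the smaller pseudocount (7.81%). The genes lower in both lines numbered 16, and 10 of 33 with a filter of 5 FPKM and 8 of 20 sharing no exon, where fewer genes were measured. The shares of all rows were 23.9%, 23.3% and 23.2%. Between the lines 11 genes were called, and 3 without a filter and 5 of 20 sharing no exon, against 37.1%, 19.4% and 41.2% of all rows. The limma fit over both lines called 0 of the genes under all 10 alternatives, including the fit with no replicate block (0). In that block the line pairs the libraries, and the labels give no replicate numbers. Leaving out a library was not run, since 3 libraries leave no residual degree of freedom. About 0.0385 to 0.0471 FPKM correspond to 1 fragment in 2 kb, and XRCC2 in AGS rests on about 36 and 51 fragments.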
